A study of Mus musculus with 6 samples.

Results

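The transcription factors described here are 10 regulators of endothelial identity and of the vascular response to flow: the SOXF proteins Sox7, Sox17 and Sox18, the ETS proteins Erg, Fli1 and Ets1, the basic helix-loop-helix factor Tal1, the zinc finger protein Gata2, and the Krüppel-like factors Klf2 and Klf4. Every non-control spot whose annotation named one of these genes was taken, which gave 13 probes with 1 spot each, out of 55681 probes that name 21623 genes. The arrays measured 1G11 cells, a mouse microvascular endothelial line of strain C57BL/6NCrLBR, as mock transfectants (1G11-mock, 3 arrays) and as cells that overexpress superoxide dismutase-3 (1G11-SOD3, 3 arrays). Superoxide dismutase-3 is the secreted enzyme that removes superoxide outside the cell. Both lines had spent 6 h in the supernatant of N202.1A cells, a murine mammary cancer line, so that no array shows either line without that medium. The 3 arrays of a line came from independent experiments, but the labels name no separate derivations of a line. How often each line was derived, and whether it is a clone or a pool, is not given in the sources used here. All arrays lay on 1 slide with a row of the slide for each line, so that slide row and cell line cannot be told apart.

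Members of these families work together at endothelial enhancers. ETS factors bind sites with the core GGAA next to most endothelial genes, and Erg and Fli1 are counted among the factors that hold an endothelial cell in its identity. SOXF proteins act in arterial specification and in the growth of lymphatic vessels, often beside ETS factors. Tal1 and Gata2 meet in a complex with the bridging proteins Lmo2 and Ldb1, which serves blood stem cells and endothelium alike. Klf2 and Klf4 are induced by laminar flow and restrain inflammatory genes such as Vcam1 and Ccl2. Sod3 itself, which checks the labels, was higher on the arrays of 1G11-SOD3. Its normalized intensities (log2) were 13.61, 12.66 and 9.86 in 1G11-mock and 16.37, 16.30 and 16.26 in 1G11-SOD3, from a single spot in the middle of the array. The log2 fold change was 4.27 (limma adjusted p = 0.0076), and 2.64 (limma adjusted p = 0.021) with the position adjustment described below.

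Of the 10 genes, 4 had no probe well above the local background on any array (Sox17, Sox18, Erg and Fli1, with 6 probes between them). Another 5 were well above background on all 6 arrays: Tal1, Gata2, Klf2, Klf4 and Ets1 by its probe 2. Ets1 probe 1 passed on all 3 1G11-SOD3 arrays and on 2 of 3 1G11-mock arrays. Sox7 passed on all 3 1G11-SOD3 arrays and on none of 1G11-mock. Of all non-control spots, between 34.2% and 43.8% per array were well above background. Among 21604 genes by their brightest probe, 11129 were well above it on every array of at least 1 line and 8857 on no array. For the 10 members these counts were 6 and 4. The same check over 12 endothelial marker genes found 6 well above background on every array of at least 1 line and 4 on no array, namely Cdh5 (VE-cadherin), Tek, Tie1 and Emcn. The authors state that staining for VE-cadherin was used regularly to check that 1G11 cells are endothelial. The arrays measure RNA and not that protein. The 10 hematopoietic markers had 6 genes that were never well above background, and none of the 10 was called between the lines. Of 10 fibroblast and mural markers, 9 were well above background on every array of at least 1 line and 0 on no array. Of 10 epithelial markers these counts were 2 and 5.

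**Figure D1:**
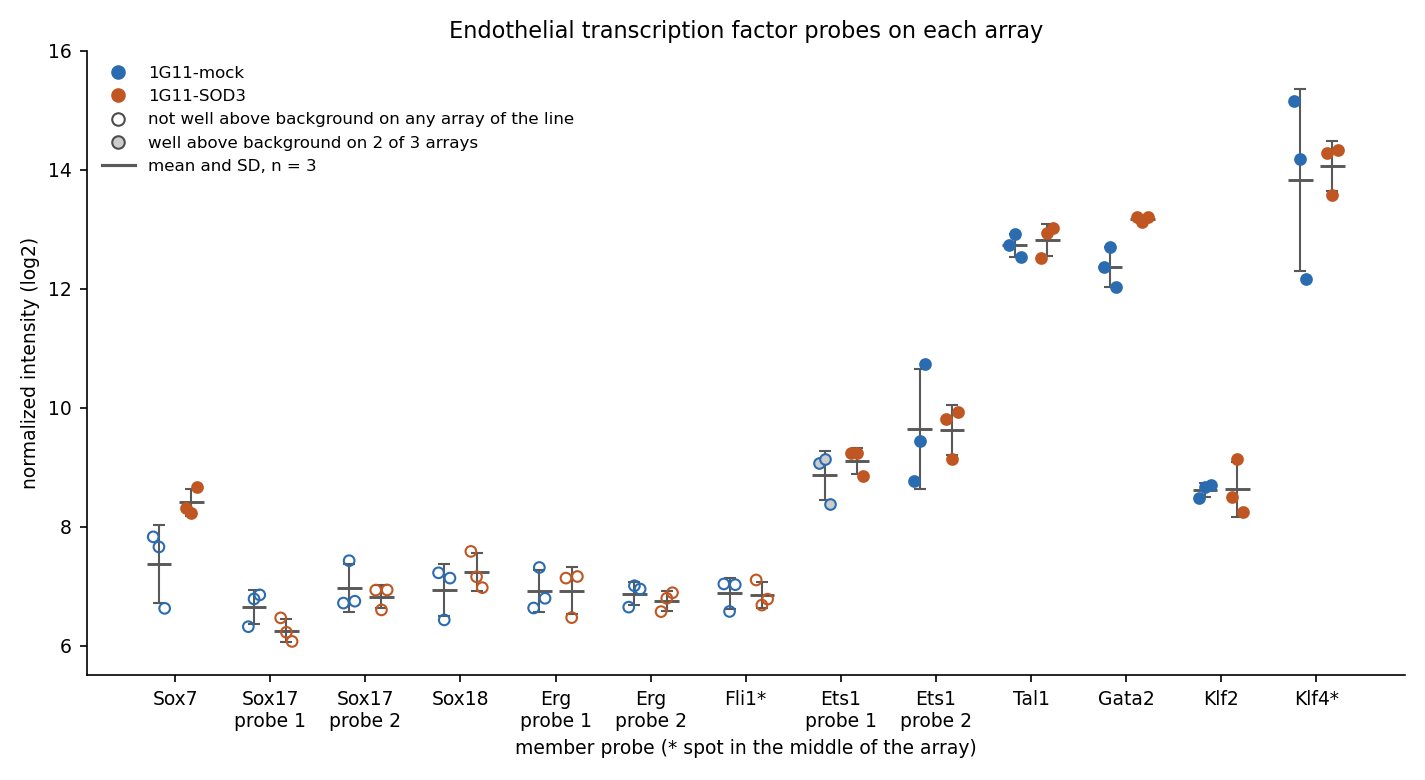
Normalized intensity (log2, y axis) of the 13 member probes (x axis) on the 3 1G11-mock and the 3 1G11-SOD3 arrays, with the mean and SD of each line. Filled points are of lines in which the probe was well above background on all 3 arrays, grey points of the line in which Ets1 probe 1 passed on 2 of 3, and open points of lines in which it passed on none. Gata2 and Sox7 are the 2 members whose arrays do not overlap between the lines, both higher in 1G11-SOD3, as 10.3% of all probes are.

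Where a spot was printed bore on these comparisons. In the middle of the array (rows 129 to 256 and columns 55 to 109), spots were dimmer on the 1G11-mock arrays, and most so on replicate 3. Klf4 (row 236, column 71) and Fli1 (row 209, column 100) lay in the middle and are therefore given apart. Ets1 probe 1 lay 3 columns outside it and Sox7 lay 23 rows outside it. For every value a second one was computed in which a smooth surface over rows and columns had been taken off the signal above background of each array, and this is called the position-adjusted value below. Among held-out probes printed 10 times, the median SD of the difference between the lines among copies of one probe fell from 0.541 to 0.187 with this adjustment for bright probes (log2 mean above 9), and was 0.274 before and 0.264 after it for dim probes.

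**Figure D2:**
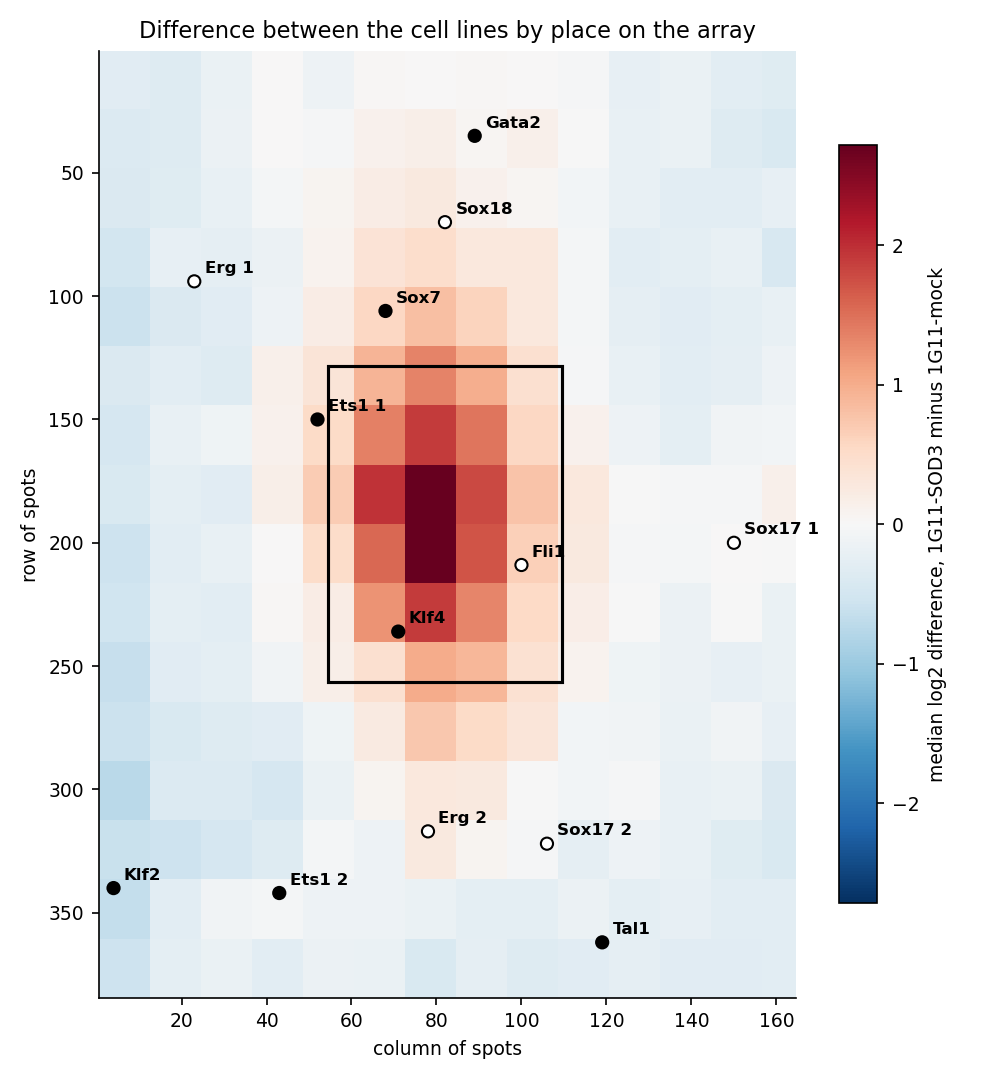
Median difference between the lines (log2, 1G11-SOD3 minus 1G11-mock, color scale) over blocks of 24 rows (y axis) and 12 columns (x axis) of spots, from spots that 3 or more arrays measured well above background. The box is the middle of the array, dots are member spots (black where every array of at least 1 line was well above background, white otherwise), and Klf4 sits where the block medians are high.

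None of the 13 member probes was called, a call being a difference of more than 2-fold with an adjusted p under 0.05 by limma over all probes. The background was 2.93% of all probes, or 5.81% of those well above background on all 6 arrays. At an unadjusted p under 0.05 there were 2 member probes, Sox7 and Gata2, both higher in 1G11-SOD3, against 14.4% of all probes. The median log2 fold change of the 13 probes was 0.01, and that of all probes was -0.03. After position adjustment again no member probe was called (background 1.42%), and 3 had an unadjusted p under 0.05 (Sox7, Gata2 and Klf4; 13.4% of all probes). For a single probe, 3 arrays against 3 cannot give an exact permutation p below 0.1 in a 2-sided test. These are bulk RNA measurements, in which fewer cells that express a gene and less RNA per cell cannot be told apart.

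Gata2, a zinc finger factor of blood progenitors and endothelium, was the member with the smallest unadjusted p (0.0058 by limma). Its probe (row 35, column 89; chr6:88156362-88156421 in the array annotation, which gives no build) read 12.36, 12.71 and 12.02 in 1G11-mock and 13.20, 13.12 and 13.21 in 1G11-SOD3, in log2 intensity. All 3 1G11-SOD3 arrays lay above all 3 1G11-mock arrays, as they did for 10.3% of all probes. The means were 12.36 ± 0.34 and 13.18 ± 0.05 (SD, n = 3), a log2 fold change of 0.81 (SE 0.24, 95% interval 0.29 to 1.34), or 1.76-fold. With limma's adjusted p of 0.111 it did not pass the test. Its spot lay where the lines differed little, the median of its bright neighbors being 0.08 in log2. The position-adjusted log2 fold change was 0.70 (adjusted p = 0.147 by limma). The arrays of the lines again did not overlap, as for 19.8% of all probes on that scale in either direction. Across the other settings tried with all 6 arrays, the value stayed between 0.69 and 0.99 with adjusted p between 0.063 and 0.201 by limma.

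Sequence upstream of the starts of Gata2, Klf4 and Tal1 is shown because these were the members, apart from Sox7, whose arrays separated before or after position adjustment, with the first of 2 starts for Tal1. RefSeq promoters (GRCm38.p6) matched 5 of the 10 genes with 9 starts. There was no entry for Sox7, Sox17, Sox18, Fli1 and Ets1. Capitals mark matches to the ETS core GGAA, to the zinc finger motif GATAA of Gata2 and its relatives, to the CACCC box of Krüppel-like factors, to the SOX core ACAAT, and to the E-box CANNTG that Tal1 binds with its partners. All were searched on both strands in the 250 bases before each start, and a match on the other strand shows as the reverse complement.
Gata2, first start (chr6:88193641-88193890, + strand): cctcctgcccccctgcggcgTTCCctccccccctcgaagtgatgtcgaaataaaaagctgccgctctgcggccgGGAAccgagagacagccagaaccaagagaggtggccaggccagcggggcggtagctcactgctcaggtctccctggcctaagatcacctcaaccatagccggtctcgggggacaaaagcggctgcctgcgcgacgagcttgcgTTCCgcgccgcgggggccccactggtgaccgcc
Gata2, second start (chr6:88198414-88198663, + strand): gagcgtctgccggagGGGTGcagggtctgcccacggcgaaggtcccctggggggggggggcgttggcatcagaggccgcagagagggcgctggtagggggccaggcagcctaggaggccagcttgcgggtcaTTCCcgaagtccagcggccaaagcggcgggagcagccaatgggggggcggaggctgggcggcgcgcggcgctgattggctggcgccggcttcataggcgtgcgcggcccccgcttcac
Klf4 (chr4:55532476-55532725, - strand, read 5′ to 3′): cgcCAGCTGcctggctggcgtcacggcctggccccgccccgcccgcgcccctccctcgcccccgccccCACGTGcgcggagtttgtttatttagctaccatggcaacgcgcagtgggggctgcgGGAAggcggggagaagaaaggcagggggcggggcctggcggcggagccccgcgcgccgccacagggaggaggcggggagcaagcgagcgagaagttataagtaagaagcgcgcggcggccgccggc
Tal1, first start (chr4:115056176-115056425, + strand): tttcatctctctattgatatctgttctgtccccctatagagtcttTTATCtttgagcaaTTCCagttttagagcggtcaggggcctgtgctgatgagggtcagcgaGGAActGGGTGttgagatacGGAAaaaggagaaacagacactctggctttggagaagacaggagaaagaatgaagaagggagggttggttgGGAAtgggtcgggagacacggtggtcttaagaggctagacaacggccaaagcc
The first Gata2 start had 3 GGAA matches and no other motif, and the second had 1 GGAA and 1 CACCC match. The Klf4 sequence had 1 GGAA and 2 E-box matches. The Tal1 sequence had 4 GGAA matches, 1 GATAA match and 1 CACCC match, while the second Tal1 start, not printed, had 3 GGAA matches only. Of the 9 starts, 1 of Erg had a match to each of the 5 motifs. Of the 32851 promoters of the table, cut to the same length, 93.4% held GGAA, 66.2% the E-box and 52.0% the CACCC box. The SOX core was held by 27.7% and the GATAA motif by 22.6%.

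Tal1, the partner of Gata2 in that complex, read 12.73, 12.92 and 12.53 in 1G11-mock and 12.52, 12.93 and 13.03 in 1G11-SOD3 (log2). The arrays of the lines overlapped. The log2 fold change was 0.10 (95% interval -0.43 to 0.62; limma adjusted p = 0.901), an interval that leaves out a 2-fold difference in either direction. Its spot lay near the lower edge, where the 106 neighbors had a median difference of -0.24. The position-adjusted log2 fold change was 0.35 (95% interval -0.11 to 0.82; adjusted p = 0.510 by limma). On that scale all 1G11-SOD3 arrays lay above all 1G11-mock arrays, where 19.8% of all probes separate in either direction.

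Sox7, the one SOXF factor with signal, was at the edge of detection. Its probe (row 106, column 68; chr14:64569419-64569478 in the array annotation) read 7.83, 7.66 and 6.63 in 1G11-mock, none of them well above background, and 8.32, 8.24 and 8.67 in 1G11-SOD3, all of them well above it. The arrays of the lines did not overlap, 1G11-SOD3 being higher, as for 10.3% of all probes. The measured log2 fold change was 1.04 (SE 0.32, 95% interval 0.35 to 1.73; limma adjusted p = 0.125). Because 1G11-mock has only an upper bound, a bound on the measured difference was taken as well. It is the 1G11-SOD3 mean over the lowest signal that was well above background on each 1G11-mock array, and was 1.43-fold. This bound leaves out the spread among arrays. Spots that are not well above background can also read higher than that lowest signal. For example, 1 of them read 8.21 on 1G11-mock replicates 1 and 2, where the lowest signals were 7.99 and 7.94. The bound is therefore not a minimum for the true difference. The surface at that spot was itself higher in 1G11-SOD3 by 0.61 in log2. With it taken off the signal above background the log2 fold change was 0.86 (adjusted p = 0.263 by limma) and the bound was 1.29-fold. The arrays still did not overlap, as for 19.8% of all probes in either direction. Over the alternatives with all arrays the value ranged from 0.45 to 1.25, and the position-adjusted value without 1G11-mock replicate 3 was 0.47.

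Sox17 and Sox18, the SOXF factors of arteries and of lymphatic vessels, stayed at background on all 6 arrays. The 2 Sox17 probes had means of 6.65 and 6.96 in 1G11-mock and of 6.25 and 6.82 in 1G11-SOD3, and the Sox18 probe had means of 6.93 and 7.24. The ETS factors Erg and Fli1 were likewise at background. Means of the 2 Erg probes were 6.91 and 6.87 in 1G11-mock and 6.92 and 6.75 in 1G11-SOD3. Fli1, in the middle of the array, had means of 6.88 and 6.86. No fold change is given for these 4 genes, since both lines have only an upper bound.

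Ets1, the ETS factor of migrating endothelium, was the only member with 2 detected probes. Probe 1 lies at bases 1480 to 1539 of the transcript, in the part that encodes the DNA-binding ETS domain, and is printed because the probes did not move together.
Ets1 probe 1: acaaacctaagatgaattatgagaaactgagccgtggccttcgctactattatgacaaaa
Probe 2 starts at base 4514 of the same transcript. In the array annotation the probes map to chr9:32561826-32561885 and chr9:32564860-32564919. Probe 1 read 9.07, 9.14 and 8.39 in 1G11-mock and 9.23, 9.23 and 8.85 in 1G11-SOD3, and its log2 fold change was 0.24 (95% interval -0.34 to 0.82; limma adjusted p = 0.740). Probe 2 read 8.76, 9.44 and 10.74 in 1G11-mock and 9.81, 9.14 and 9.93 in 1G11-SOD3, and its log2 fold change was -0.02 (95% interval -0.96 to 0.92; limma adjusted p = 0.990). Neither probe separated the lines. On 1G11-mock replicate 3 probe 1 was at its lowest and probe 2 at its highest. Pearson's r between them across the 6 arrays was -0.79, and -0.44 after position adjustment, given as a description of arrays that share a slide. The median deviation of the neighbors of probe 1 on that array was -0.59 in log2, and that of the neighbors of probe 2 was 0.49. Position-adjusted log2 fold changes were -0.06 and 0.06. The intervals of probe 1 and of the position-adjusted values leave out a 2-fold difference.

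Klf2, the flow-induced factor, was detected a little above the lowest signals that counted as well above background. It read 8.48, 8.67 and 8.70 in 1G11-mock and 8.49, 9.14 and 8.25 in 1G11-SOD3 (log2), with full overlap between the lines. The log2 fold change was 0.01 (95% interval -0.57 to 0.59; limma adjusted p = 0.990). Its spot lay 4 columns from the left edge, where the 78 neighbors were lower in 1G11-SOD3 by a median of -0.65 in log2. The position-adjusted log2 fold change was 0.46 (95% interval -0.10 to 1.02; adjusted p = 0.477 by limma).

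Klf4, which shares many targets with Klf2, is given apart because its spot lay in the middle of the array. Its probe (chr4:55540167-55540226 in the array annotation) read 15.15, 14.17 and 12.16 in 1G11-mock and 14.27, 13.58 and 14.33 in 1G11-SOD3 (log2). The 1G11-mock arrays spanned the whole range of 1G11-SOD3, with replicate 1 above and replicate 3 below all arrays of the other line. The log2 fold change was 0.23 (SE 0.58, 95% interval -1.04 to 1.51; limma adjusted p = 0.902). The surface at this spot was 0.01, -0.36 and -1.52 on the 1G11-mock arrays and 0.72, 0.29 and 0.88 on the 1G11-SOD3 arrays, in log2. The 96 neighbors differed between the lines by a median of 1.28.

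With the surface taken off, Klf4 read 15.11, 14.52 and 13.73 in 1G11-mock and 13.53, 13.27 and 13.46 in 1G11-SOD3, so that the highest 1G11-SOD3 array lay below the lowest 1G11-mock array. The lines do not overlap after adjustment for 19.8% of all probes. The position-adjusted log2 fold change was -1.04 (SE 0.31, 95% interval -1.71 to -0.36; limma adjusted p = 0.156), of the opposite sign to the unadjusted value and not called. Without 1G11-mock replicate 3, on which the middle was dimmest, the position-adjusted value was -1.40 (limma adjusted p = 0.030), which passes the threshold. Leaving out any other array gave position-adjusted values between -1.09 and -0.71 that did not pass. Without that array and without adjustment it was -0.60 (limma adjusted p = 0.473). The direction for Klf4 thus turned with the position adjustment, and also without adjustment when 1G11-mock replicate 3 was left out. These arrays hold no second Klf4 probe.

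**Figure D3:**
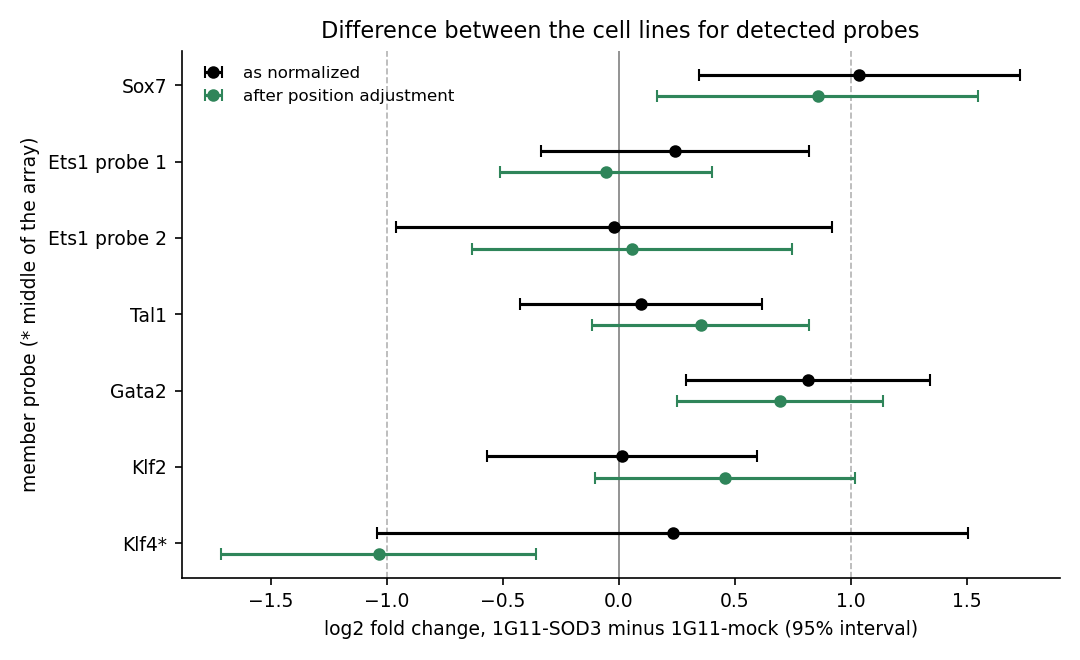
Log2 fold change (x axis, 1G11-SOD3 minus 1G11-mock) with its 95% interval from limma for the 7 member probes (y axis) that were well above background on every array of at least 1 line, as normalized (black) and after position adjustment (green). Dashed lines mark 2-fold, and Klf4 moves from 0.23 to -1.04, while both Ets1 probes also change sign, close to 0.

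The patterns of the detected members across arrays resembled those of unlike genes. Among 8918 genes well above background on all arrays outside the middle, Gata2 was followed most closely by Rcbtb2 (Pearson's r of 1.00 over 6 arrays) and Echs1 (0.99). Tal1 was followed by Snx4 (0.97) and Pde4dip (0.95), Klf2 by Nat10 (0.98) and Tnfsf9 (0.97), and Ets1 probe 2 by Jpt1 (1.00) and 2610507B11Rik (0.99). As many as 70 genes had r above 0.95 with Gata2, and 2 with Tal1. With 6 arrays of 2 lines on 1 slide, these values describe the arrays only.

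Relatives of the members were then counted, each gene by its brightest probe, against a background of 4.76% of all genes called (3.02% higher and 1.75% lower), or 2.51% after position adjustment. Among the other SOX factors none of 16 was called (Sox9, at -1.12, passes with same-numbered arrays paired, adjusted p = 0.016 by limma), of which 4 were well above background on every array of a line. None of 23 other ETS factors was called (14 detected in that sense), and none of the 7 GATA factors and their FOG cofactors (6 detected). At an unadjusted p under 0.05 these lists had 1, 5 and 1 genes, against 19.4% of all genes, and their median log2 fold changes were -0.12, 0.05 and -0.24, against -0.03 over all genes. Of 15 other KLF factors, 3 were called and all were lower in 1G11-SOD3. Klf6, an early response factor of injured vessels, fell by 1.56 on the log2 scale (adjusted p = 0.0093 by limma). Its arrays read 13.48, 13.99 and 14.40 in 1G11-mock and 12.25, 12.42 and 12.53 in 1G11-SOD3. Klf9, a target of glucocorticoid and thyroid hormone receptors, fell by 1.23 (limma adjusted p = 0.030), and Klf7 fell by 1.08 (limma adjusted p = 0.047). Klf6 and Klf9 were also called after position adjustment, at -1.09 and -1.10, whereas Klf7 at -0.86 was not. Leaving out any 1 array gave 1 or 2 called genes in the KLF list without position adjustment, and 1 without 1G11-mock replicate 2, 1G11-SOD3 replicate 1 or 1G11-SOD3 replicate 2. After position adjustment the list had 1 called gene without 1G11-mock replicate 1, and 0 without any other array. The median of the KLF list was -0.20.

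Of 12 partners of Tal1, 3 were called. Ldb1, the bridging protein of the Tal1 and Gata2 complex, read 8.29, 8.11 and 8.15 in 1G11-mock and 12.07, 11.04 and 11.97 in 1G11-SOD3, a log2 fold change of 3.51 (limma adjusted p = 0.00018). Its spot was in the middle of the array, and 1 of the 3 arrays of 1G11-mock measured it well above background. The median difference over the block of spots that holds it was 2.72 in log2. Position-adjusted, the log2 fold change of Ldb1 was 1.13 (limma adjusted p = 0.042), still called with all arrays. After position adjustment with any 1 array left out, no partner of Tal1 was called. Tcf4, an E protein that pairs with Tal1, fell by 1.32 (limma adjusted p = 0.0098), and the LIM protein Lmo4 fell by 1.18 (limma adjusted p = 0.026). Neither of those was called after position adjustment (-0.78 and -0.93). Lmo2, the other bridging protein, was well above background on no array by its brightest probe. Of 20 other endothelial regulators, 1 was called, the MADS box factor Mef2d, which fell by 1.23 (limma adjusted p = 0.018; -0.79 and not called after position adjustment). The median log2 fold changes of the partners and of the regulators were both -0.14.

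Genes that carry known ETS or SOXF sites did not move one way. Of 22, 2 rose and 1 fell, with a median log2 fold change of -0.01. Egfl7, a secreted factor of the vessel wall that 2 of the 3 arrays of 1G11-mock measured well above background, rose by 1.83 (limma adjusted p = 0.017; position-adjusted 1.14, not called). Cd34, a surface sialomucin, rose by 1.11 (limma adjusted p = 0.027; position-adjusted 1.05, called). Vwf, the clotting protein of endothelial storage granules, fell by 1.66 (limma adjusted p = 0.0034; position-adjusted -1.54, called). With same-numbered arrays paired, Flt1 (log2 fold change of 1.08, limma adjusted p = 0.024) and Esam (1.22, limma adjusted p = 0.046) pass as well, and neither was called after position adjustment (0.47 and -0.23). The list had 8 genes that were well above background on no array. With 1 array left out after position adjustment, 0 or 1 of its genes were called.

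Known targets of Klf2 and Klf4 were counted in the same way. Of 12 genes that these factors induce, none was called, 2 had an unadjusted p under 0.05 (19.4% of all genes), and 11 were detected. After position adjustment 1 was called, Cav1 (caveolin 1), at a log2 fold change of 1.09 (limma adjusted p = 0.018). Before adjustment it was 0.89 (limma adjusted p = 0.057). The adjusted fit called 1 gene of this list without 1G11-mock replicate 1 or 3, and 0 without any other array. Of 10 genes that Klf2 and Klf4 repress, 2 fell and 1 rose, and 7 had an unadjusted p under 0.05 (4 higher and 3 lower). Ccl2, a monocyte chemokine with 4 of its 10 spots in the middle, read 15.75, 15.34 and 16.60 in 1G11-mock and 12.36, 12.10 and 12.77 in 1G11-SOD3 and fell by 3.48 (limma adjusted p = 0.00038). Vcam1, a leukocyte adhesion molecule, read 16.83, 16.30 and 17.23 in 1G11-mock and 13.80, 13.38 and 14.11 in 1G11-SOD3 and fell by 3.02 (limma adjusted p = 0.00038). Thbs1, an antiangiogenic matrix protein, rose by 1.29 (limma adjusted p = 0.023). These 3 were called after position adjustment too, and so was the chemokine Cxcl1, at -1.93 (-1.62 before adjustment, which passes with the arrays paired, limma adjusted p = 0.0022). Ccl2 and Vcam1 are also known targets of NF-κB, and the part of Klf2 or Klf4 in their difference was not tested.

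**Figure D4:**
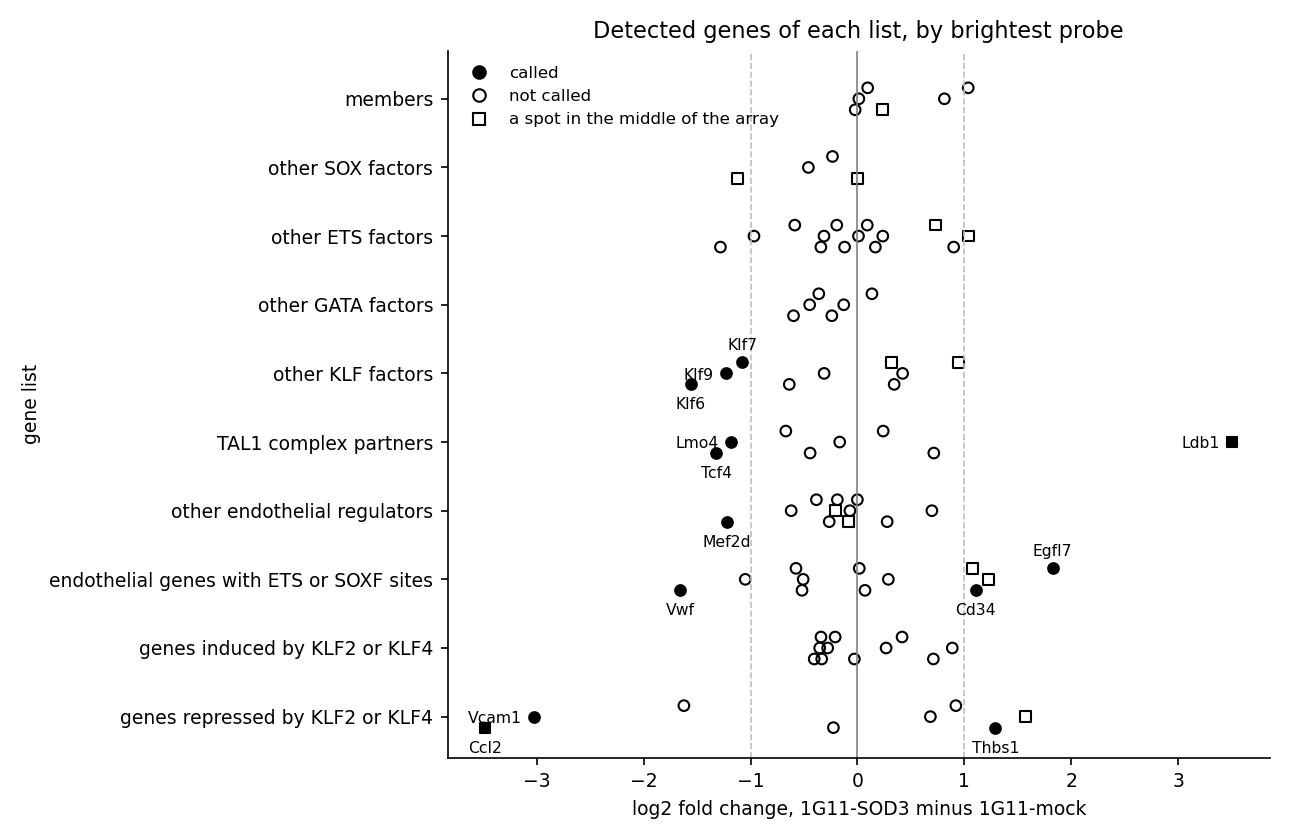
Log2 fold change (x axis, 1G11-SOD3 minus 1G11-mock) of the detected genes of each list (y axis), each gene by its brightest probe. Filled symbols are called genes, squares have at least 1 spot in the middle of the array, and dashed lines mark 2-fold. No member is filled, and 3 of the other KLF factors are filled on the left.

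Markers of other cells moved between the lines as well. Of 10 fibroblast and mural markers, 7 rose in 1G11-SOD3 and none fell. The 5 with the largest measured change were Col1a1 (8.56-fold), Acta2 (8.05-fold), Pdgfrb (5.26-fold, detected on 1 of the 3 arrays of 1G11-mock), Lum and Tagln (2.74-fold). Lum was detected on none of those 3 arrays, and its bound, taken as for Sox7, was 2.56-fold. The summed linear signal over the list lay between 76263 and 76605 on the 1G11-mock arrays and between 143825 and 373029 on those of 1G11-SOD3. The highest value is of 1G11-SOD3 replicate 3, on which Col3a1 (17.58) and Dcn (17.05) were brightest in log2, and the other 2 arrays of that line ended at 154825. Without that array 5 were called, without 1G11-mock replicate 2 there were 4, and after position adjustment 6. Of 10 epithelial markers, 1 was called, Krt14, whose spot lay in the middle and was detected on 2 of the 3 arrays of 1G11-mock (log2 fold change of 4.83, and 2.59 after adjustment). Of the 12 endothelial markers, Egfl7 rose and Vwf fell. The summed signal of that list, most of it from Eng and Kdr, which were not called, lay between 22324 and 30350 in 1G11-mock and between 16214 and 19650 in the other line. Its median log2 fold change was 0.02, and -0.20 after position adjustment. The summed signal of the genes with ETS or SOXF sites went the other way. It lay between 69067 and 90143 in 1G11-mock and between 114779 and 130389 in 1G11-SOD3. The part of these genes in the values of Gata2, Sox7 or Klf4 was not tested.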

How the data were processed

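RNA of 3 1G11-mock and 3 1G11-SOD3 cultures had been labeled with Cy3 and hybridized to single-color Agilent mouse arrays. The authors deposited, for each array, scanner intensity values of every spot and its local background, not normalized, and their own log2 table, background corrected and then quantile normalized, for which the labels name limma. The genome build behind the chromosome positions of probes is not given in the sources used here. It differs from the GRCm38.p6 of the promoters. The annotation puts the Klf2 probe at chr8:74845137-74845196, whereas the Klf2 promoter lies at chr8:72318812-72319061. Positions of probes and of promoters can therefore not be compared.

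The mean spot intensity was corrected with normexp (offset of 50) on the local background median, taken to log2 and quantile normalized over 59305 non-control spots with limma 3.58.1 in R 4.3.3. Outlier spots were left out and spots of one probe averaged, and no spot was saturated. The lines were compared with limma's empirical Bayes fit, adjusted by Benjamini-Hochberg over 55681 probes. The position surface was a thin plate smooth (mgcv 1.9.3, basis of 250), fitted to deviations from the mean of the 6 arrays at spots well above background on at least 3 of them. Taking it off the signal above background alone was chosen after seeing the data. The surface would also take off a true difference shared by neighboring spots. Names were brought up to date through RefSeq. Sequences were read with Python 3.11.15 and pandas 2.3.3.

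The members and gene lists were chosen with earlier results of these data known. All member probes are named, with Sod3, called genes of the lists (the 5 largest where there were more) and the 2 genes most like each member outside the middle. Markers at background, Lmo2, Cav1, Cxcl1, Sox9, Flt1, Esam, Col3a1, Dcn, Eng and Kdr were named after their values were seen. The procedure was tested on simulated arrays. These held no effect of place, slide row or pairing, and only bright probes were changed, by far more than 2-fold. That test therefore does not cover dim probes, spots in the middle or differences near 2-fold. The number of arrays, 3 per line, limits the precision. Labels number the arrays of both lines 1 to 3. Deviations of same-numbered arrays from their line's mean correlated at 0.17, 0.10 and 0.16 across probes, each above 0.1, and those of unlike-numbered arrays at -0.17 to 0.06. The numbers were therefore taken as a possible pairing. Values and calls are from the fit without pairing, except where pairing is named. No column of per-sample values was left without a sample.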

Additional observations from a re-analysis of the deposited data

How the results depend on the processing

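Gata2 and Sox7 stayed higher in 1G11-SOD3 and uncalled under every alternative tried, with values without 1 array, position-adjusted or not, of 0.61 to 0.99 and 0.47 to 1.27. The number of member probes called was 0 except with the processed signal, scaled by its 75th percentile, (3: Sox18, Erg probe 2 and Fli1, all lower and never well above background) and after position adjustment without 1G11-mock replicate 3 (1: Klf4), so that leaving out 1 array gave 0 to 1. Processed signal and scaling together moved the median difference over genes to -0.34 and of probes never well above background to -0.83, and the same scaling of normexp values moved them to -0.26 and -0.45. Klf4 turned to -0.61 with the processed signal, -1.05 with the surface taken off the whole signal and -1.04 with it taken off the signal above background, and spanned -1.40 to 0.89 without 1 array. It and Fli1 have no value with the middle left out. Ets1 probe 1 turned to -0.30, -0.12 and -0.056 under the same 3 settings (-0.14 to 0.38 without 1 array). Ets1 probe 2 turned to 0.013 with median pixel signal, 0.41 with the processed signal, 0.017 with the deposited log2 table, and 0.053 and 0.056 with the 2 position adjustments (-0.46 to 0.52 without 1 array). Klf2 turned to -0.028 without background correction and -0.16 with the 75th percentile in place of quantile normalization (-0.24 to 0.69 without 1 array), and Tal1 spanned -0.0046 to 0.43 without 1 array and reached 0.67 with the processed signal. These reversals are of values that did not pass the test, and their cause was not tested. List genes called (13 of 137) became 8 with an offset of 16 and 31 with the processed signal, and were 3 to 12 without 1 array. They were 7 without 1G11-mock replicate 2, 1G11-SOD3 replicate 1 or 1G11-SOD3 replicate 2, and after position adjustment 10, of which 8 were the same genes. All probes called (1629, of which 1041 higher) became 1056 without background correction, 11118 with the processed signal (1200 higher, 9918 lower), 2518 with the 75th percentile and no quantile normalization, 2692 with the surface taken off the whole signal (748 higher, 1944 lower), 790 with it taken off the signal above background (414 higher, 376 lower) and 843 with the middle left out (299 higher, 544 lower). Without 1 array they were 318 to 1785 over both scales. Unadjusted, they were 813 without 1G11-mock replicate 2 and 763, 1043 and 804 without 1G11-SOD3 replicates 1, 2 and 3. With the replicate block, which pairs same-numbered arrays, 0 member probes, 17 list genes and 2260 probes were called. The added list genes were Sox9 and Cxcl1 (lower) and Flt1 and Esam (higher), and it changed no call of a member.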
